A study of Homo sapiens with 6 samples.

Results

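OPTN, which encodes optineurin, and CALCOCO2, which encodes the protein NDP52, were followed through RNA sequencing of the Kasumi-1 line, which was grown from human acute myeloid leukaemia and carries the t(8;21) translocation. They are 2 of the 7983 genes in the deposited comparison and were taken from it by gene name. Both had been picked with their values in this comparison known, so those values are given as a description, with no test. Each group held 3 libraries. Control cells carried the non-targeting guide sgNT and are labelled WT. Knockout cells carried sgSETD8, a CRISPR/Cas9 guide against SETD8, the histone H4 lysine methyltransferase whose gene symbol is now KMT5A. The labels do not say whether knockout cells were 1 clone or a pool, nor what the library numbers stand for, such as cultures or guides, and the spread behind each p-value below may therefore be purely technical.

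Mitophagy is the removal of damaged mitochondria by autophagy. In its best known route, which the kinase PINK1 starts, a damaged mitochondrion is coated with ubiquitin chains. Optineurin and NDP52 bind those chains with one end and ATG8 family proteins of the growing autophagosome with another, and so act as receptors. The kinase TBK1 phosphorylates optineurin and strengthens its binding, while NDP52 also recruits the ULK kinase complex that starts autophagosome formation. Both receptors also act against bacteria in the cytosol, where NDP52 recognises the sugar-binding protein galectin-8 on broken vacuoles.

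The bases just before each transcription start are shown because these 2 receptor genes stood in opposite directions in the comparison. The windows are the 250 bases before the RefSeq start (GRCh38.p14, plus strand), at chr10:13099832-13100081 for OPTN and chr17:48830785-48831034 for CALCOCO2. Capitals mark matches to the NF-kB consensus, found on both strands at overlapping positions.
OPTN: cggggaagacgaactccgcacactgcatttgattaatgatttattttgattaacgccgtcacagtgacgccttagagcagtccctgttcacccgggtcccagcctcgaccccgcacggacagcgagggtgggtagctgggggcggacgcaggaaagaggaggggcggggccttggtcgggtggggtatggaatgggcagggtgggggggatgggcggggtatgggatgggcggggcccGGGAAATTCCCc
CALCOCO2: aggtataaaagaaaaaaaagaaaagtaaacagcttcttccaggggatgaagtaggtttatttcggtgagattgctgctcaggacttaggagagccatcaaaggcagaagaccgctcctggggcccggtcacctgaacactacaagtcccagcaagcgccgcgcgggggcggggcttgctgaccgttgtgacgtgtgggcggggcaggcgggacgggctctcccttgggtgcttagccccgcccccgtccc
In OPTN the match was the run GGGAAATTCCC, 12 to 2 bases before the start. CALCOCO2 had no match in this window. The consensus was chosen after the sequences were seen, and 5.20% of the 35093 RefSeq windows of this length held a match on either strand. The motif TGTGGT, bound by RUNX proteins, and the E-box CACGTG, bound by TFEB and its relatives, were in neither window and in 11.0% and 6.34% of all windows. GC content was 63.6% for OPTN and 58.8% for CALCOCO2, beside a median of 58.0%. A second RefSeq start of OPTN lies downstream, with the same run 93 to 83 bases before it. The authors' gene spans start earlier than these RefSeq starts. The OPTN window lies wholly inside its gene span, which starts at 13099449, and the CALCOCO2 window ends inside its span, which starts at 48830988.

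Reads in the listed genes ran from 10966349 to 12557974 per library. Values below are normalized read counts, the authors' counts after scaling for library size, as mean ± SD (n = 3). Only genes with a deposited p of at most 0.049998 are in the table, and genes outside it were not analysed here. Both receptors passed the filter on low values, a 6-library mean of 10 or more. The targeted gene KMT5A read 1191, 1212 and 1255 in control libraries and 880, 933 and 939 in knockout libraries, a fall of 1.33-fold (limma-trend adjusted p = 5.65e-05). Of 8 markers of Kasumi-1 and myeloid blasts 7 were in the table, and their summed level was 82284 to 85255 in control and 57375 to 58709 in knockout libraries. KIT and MPO, which carry most of that sum, fell, CD33, ANPEP and POU4F1 rose by 1.19, 1.34 and 0.51 on the log2 scale, and RUNX1T1 and CD34 did not pass. CD3D, 1 of 3 T cell markers, and EPCAM, 1 of 4 epithelial markers, were in the table and rose, from 1015 to 1059 up to 1254 to 1515 and from 1277 to 1432 up to 1857 to 2044. None of 4 erythroid and none of 4 fibroblast markers were in it. The part of these markers in the results below was not tested. In bulk RNA a change in the number of cells of a type and a change in RNA per cell cannot be told apart.

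OPTN was barely detected in control cells and about 8 times as high in knockout cells. Control libraries 1 to 3 held 20.4, 25.3 and 18.8 normalized reads of it, and knockout libraries 1 to 3 held 187, 155 and 175. The groups lay far apart, and the lowest knockout library was above every control library. Means were 21.5 ± 3.36 and 172 ± 16.0, an 8.00-fold difference and a log2 fold change of 2.95 (SE 0.24) on the log2(value + 1) scale. The control mean rested on few reads, 20, 26 and 19 in the 3 libraries and 65 in all, beside 522 over the knockout libraries. The ratio of these reads per unit of depth was 7.97, and counting error alone put its exact 95% binomial bounds at 6.15 and 10.5. OPTN (ENSG00000123240) spans 13099449 to 13138308 of chromosome 10 on hg38. On the opposite strand CCDC3 covers its first 204 bases and the pseudogene SNRPGP5 covers 220 bases within it. The library kit keeps strand, but no source used here says whether the counting did, and reads from such stretches are uncertain.

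CALCOCO2 was an abundant transcript and read lower in all knockout libraries. The control libraries read 3439, 3336 and 3416, and the knockout libraries 1841, 1687 and 1746. Within each group the libraries stayed close together, and the groups did not overlap. Means were 3397 ± 54.0 and 1758 ± 77.5, a 1.93-fold lower level and a log2 fold change of -0.95 (SE 0.06). With 10243 reads over the control and 5335 over the knockout libraries, counting error was small. The reads gave a 1.93-fold lower rate, and counting error alone put its exact 95% binomial bounds at 1.87 and 2.00. These bounds leave out variation between libraries. CALCOCO2 (ENSG00000136436) spans 48830988 to 48866522 of chromosome 17, where the annotation places no other gene. Non-overlap of the groups was the rule in this table, holding for 95.4% of the 7516 tested genes. By size of log2 fold change in either direction, OPTN ranked 147 and CALCOCO2 1613 among the tested genes.

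**Figure D1:**
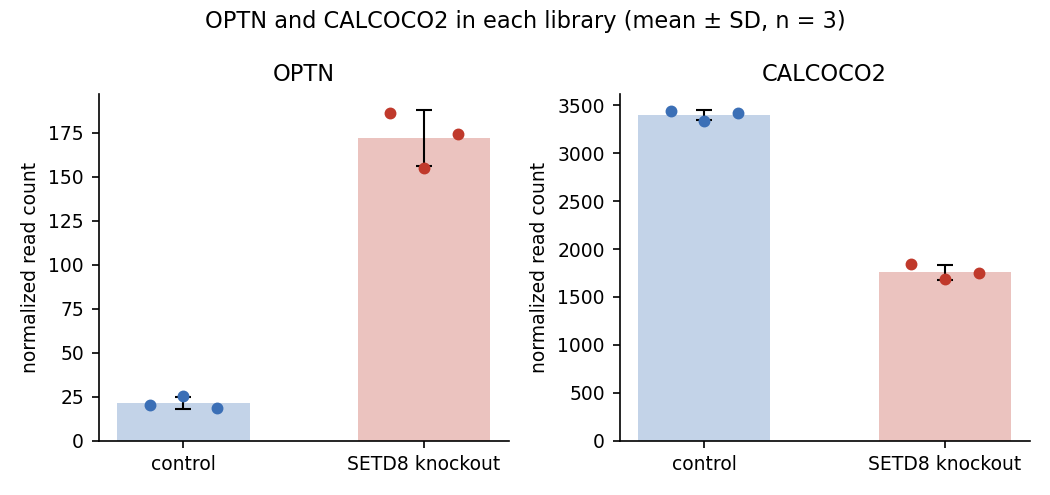
Normalized read counts (y axis, linear from 0) of OPTN and CALCOCO2 in the 3 control (blue) and 3 SETD8 knockout (red) libraries; points are libraries, bars are means and whiskers SD. OPTN lies between 18.8 and 25.3 in control and between 155 and 187 in knockout, while CALCOCO2 lies between 3336 and 3439 in control and between 1687 and 1841 in knockout.

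The scale of the 2 genes differed greatly, so the fold changes describe unlike amounts of transcript. Per kilobase of gene length, using 5138 bases for OPTN and 8333 for CALCOCO2, control libraries read 4.19 for OPTN and 408 for CALCOCO2 on average. CALCOCO2 was thus 104, 81.4 and 112 times as high as OPTN in the control libraries. In the knockout libraries, at means of 33.5 and 211 per kilobase, it was 6.08, 6.72 and 6.17 times as high. CALCOCO2 therefore remained the more abundant of the pair in every library, although the gap narrowed. Among the ubiquitin-binding receptors in the table, the order per kilobase in control cells was CALCOCO2, NBR1 at 162, TOLLIP at 138 and OPTN. NBR1 and TOLLIP were neighbours whose control libraries overlapped in this plot of levels per length. In knockout cells the order was CALCOCO2, TOLLIP at 179, NBR1 at 78.4 and OPTN.

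**Figure D2:**
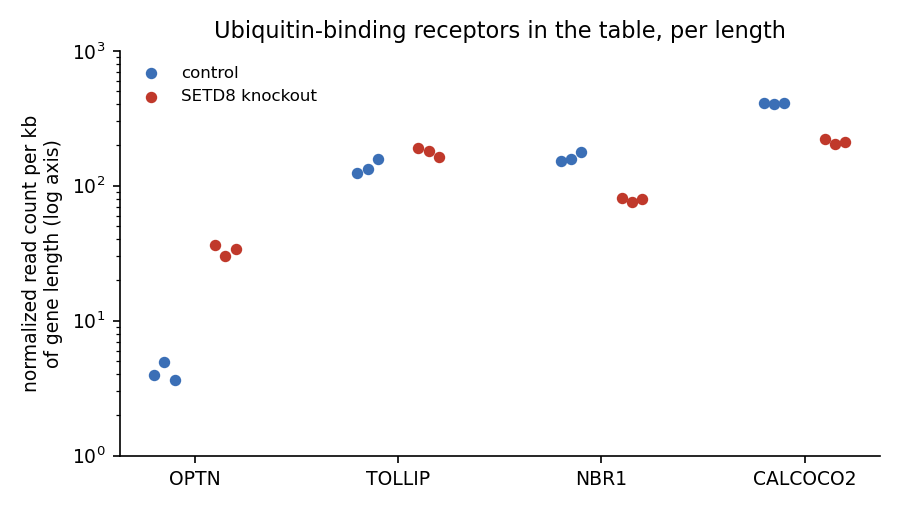
Normalized read count per kilobase of gene length (log y axis) for the 4 ubiquitin-binding receptor genes in the table; each point is 1 library, blue for control and red for SETD8 knockout. OPTN is lowest in both groups, near 4.19 in control and 33.5 in knockout, and CALCOCO2 is highest, near 408 and 211.

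Genes around OPTN went in both directions. Within 1 Mb of OPTN the annotation has 14 other protein-coding genes, of which 6 were in the table and tested; 3 were called higher and 3 lower, that is, with a limma-trend p below 0.05 after Benjamini-Hochberg adjustment. Of all tested genes 94.1% were called, 47.3% as higher and 46.7% as lower, in a table that lists only genes with a low deposited p, so these counts are read for direction only. The nearest was MCM10, a replication factor that starts 23.2 kb beyond OPTN, which fell from 1768 ± 57.0 to 1519 ± 56.0 (log2 fold change -0.22, adjusted p = 0.0083). SEPHS1, a homologue of selenophosphate synthetase, rose from 1432 ± 54.5 to 1852 ± 155. CDC123, an assembly factor of the translation initiator eIF2, rose by 0.52 on the log2 scale, and DHTKD1, a mitochondrial dehydrogenase of lysine breakdown, fell by 0.41. FRMD4A, a scaffold protein of epithelial polarity, had the largest change of the 6, from 18.3 ± 6.57 to 46.3 ± 4.52 (log2 fold change 1.36, adjusted p = 0.0036). The sixth, the splicing factor PRPF18, was lower by a log2 fold change of -0.43 (adjusted p = 0.034), a call that ended without control 1, control 3, knockout 2 or knockout 3 (adjusted p up to 0.16). None of the 6 came near the log2 fold change of 2.95 of OPTN. Further out, among the 10 nearest tested genes, PROSER2-AS1 rose by 0.39 on the log2 scale while PROSER2, which it overlaps, CELF2 and FAM107B fell by 0.91, 0.36 and 0.50. The median log2 fold change of the 6 genes was 0.07, and that of the 16 tested genes within 5 Mb was -0.28. On chromosome 10 as a whole 64.5% of 324 other tested genes were below 0, with a median of -0.39. Over all tested genes 49.6% were below 0, with a median of 0.14.

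The level of OPTN was also set against its surroundings. Their median log2 fold change was 0.07, so this difference mostly restates the change of OPTN itself. Its log2(value + 1) minus the median over the genes within 1 Mb was -5.73, -5.42 and -5.92 in the control libraries. The same difference was -2.42, -2.73 and -2.59 in the knockout libraries. The groups did not overlap, but the share of genes for which this holds on this scale was not computed.

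Tested genes around CALCOCO2 were mostly lower, as CALCOCO2 was. Within 1 Mb the annotation has 44 other protein-coding genes, of which 17 were in the table and 16 tested. The direction of the others is not known here. Of any biotype, 21 genes within 1 Mb were tested, of which 19 fell and 2 rose, with a median log2 fold change of -0.72. Over all tested genes 46.7% were called lower, and 49.6% had a log2 fold change below 0, with a median of 0.14. On chromosome 17 as a whole 75.9% of 547 other tested genes were below 0. UBE2Z, a ubiquitin-conjugating enzyme 41.8 kb away, fell from 3574 ± 86.7 to 2407 ± 50.0 (log2 fold change -0.57, adjusted p = 2.36e-08). ZNF652, a zinc finger repressor, fell from 761 ± 65.5 to 363 ± 30.9, a log2 fold change of -1.07 that was larger than that of CALCOCO2. On the other side NFE2L1, the transcription factor of proteasome genes, CBX1, which encodes the heterochromatin protein HP1 beta, and CDK5RAP3 fell by 0.53, 0.59 and 0.72 on the log2 scale. SNX11, a sorting nexin, was lower by -0.31 (adjusted p = 0.014), but not without control 2 or knockout 3 (adjusted p up to 0.10).

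The 2 genes near CALCOCO2 that were called higher were ATP5MC1 and PHB. ATP5MC1, a subunit c gene of ATP synthase that lies 26.2 kb away, read 1392 ± 113 and 1597 ± 96.3 (log2 fold change 0.20, adjusted p = 0.034). That call ended without control 1, knockout 1 or knockout 2 (adjusted p up to 0.23) and with upper-quartile scaling (0.14). PHB, which encodes the inner membrane protein prohibitin and was written in the autophagy and mitophagy lists below, read 3114 ± 242 and 3478 ± 110 (log2 fold change 0.16, adjusted p = 0.044). That call ended without control 1, control 2, knockout 1 or knockout 2 (adjusted p up to 0.25), with TMM scaling (0.057) and with upper-quartile scaling (0.23). Among low genes, SUMO2P17, AC004477.1 and ABI3 had log2 fold changes of -1.60, -1.05 and -1.75. Each of these 3 lost its call without at least 1 library, SUMO2P17 without control 2, control 3 or knockout 3, AC004477.1 without control 2 or knockout 2 and ABI3 without knockout 3. SUMO2P17 is a pseudogene that spans ATP5MC1 and the start of UBE2Z on the opposite strand, so its reads are uncertain.

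CALCOCO2 stood within the range of its surroundings but below their middle. Of the 21 genes, 7 had a lower log2 fold change and 14 a higher one, and CALCOCO2 was 0.23 below their median. It was 0.37 below the median of the 81 tested genes within 5 Mb, of which 73 were below 0. Measured library by library on the log2(value + 1) scale, it lay 2.22, 2.26 and 2.31 above the median level of the genes within 1 Mb in control cells. In knockout cells it lay 1.82, 1.81 and 1.83 above that median, a mean difference between the groups of -0.44. This is larger in size than the 0.23 given above, because a median of levels and a median of changes can rest on different genes. The groups did not overlap on this scale either, but the share of genes for which this holds was not computed. The trend of log2 fold change with gene length stood at -0.14 for a gene as long as CALCOCO2 and at -0.02 for OPTN.

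**Figure D3:**
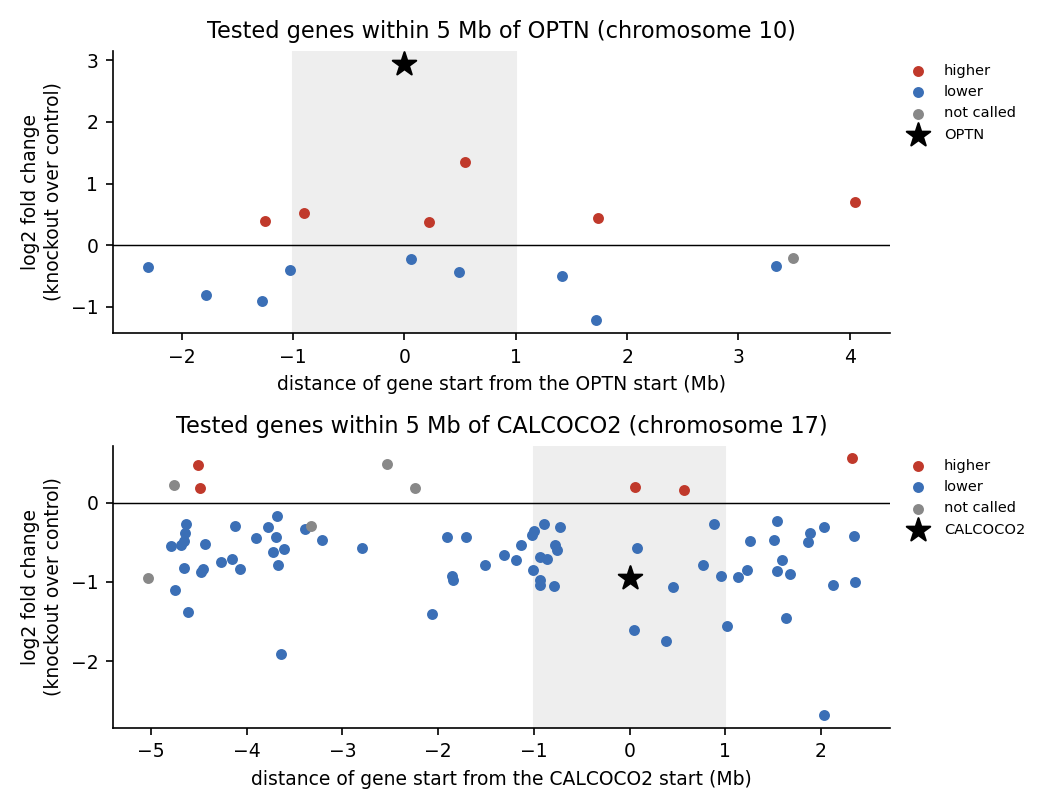
Log2 fold change (knockout over control, y axis) of tested genes within 5 Mb against the distance of their start from the start of OPTN (top) or CALCOCO2 (bottom) in Mb; red and blue points passed the test, grey ones did not, stars are the 2 receptors and shading marks 1 Mb. Around OPTN 10 of 16 genes lie below 0 and OPTN stands alone at 2.95, whereas around CALCOCO2 73 of 81 genes lie below 0 and CALCOCO2 at -0.95 lies among them.

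The other genes of autophagy and mitophagy went both ways. Of 100 further genes written in the lists, 55 were in the table and tested; 22 rose, 29 fell and 4 did not pass, with a median log2 fold change of -0.24. Over all tested genes 94.1% were called, 47.3% higher and 46.7% lower, with a median of 0.14, so the number of calls says nothing particular about these lists. Among the other ubiquitin-binding receptors, NBR1, which clears protein aggregates and peroxisomes, fell from 1366 ± 106 to 659 ± 24.6 (log2 fold change -1.05, adjusted p = 2.64e-10). TOLLIP, an endosomal adaptor that also binds ubiquitin, rose from 828 ± 105 to 1069 ± 83.3 (0.37, adjusted p = 0.0017). SQSTM1, TAX1BP1 and CALCOCO1 were outside the table and were not analysed here.

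Tested genes in the list of mitochondrial membrane receptors had log2 fold changes from -0.38 to 0.45. Of 8 tested genes in this list, which also holds the prohibitin gene PHB, 4 rose, 3 fell and 1 did not pass. Over all tested genes 47.3% were called higher and 46.7% lower, so these counts say nothing particular about the list. FKBP8, an outer membrane receptor, rose from 4335 ± 34.4 to 5528 ± 193, and NIPSNAP2, a signal for receptor binding on damaged mitochondria, rose by 0.45 on the log2 scale. BNIP3L, also called NIX and central to mitochondrial clearance in red cell development, fell from 3087 ± 88.1 to 2382 ± 144, and AMBRA1 fell by 0.35. BNIP3 read 2145 ± 38.3 and 2378 ± 157 and did not pass (adjusted p = 0.074).

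In the list of the PINK1 pathway and ubiquitin enzymes 5 of 11 tested genes rose, 5 fell and 1 did not pass. This is near the 47.3% called higher and 46.7% called lower over all tested genes. VCP, the ATPase that extracts ubiquitinated proteins from the outer membrane, rose from 6509 ± 344 to 9238 ± 364, and the phosphatase PGAM5 rose by 0.44 on the log2 scale. RHOT1, which encodes the mitochondrial transport GTPase Miro1, fell from 1826 ± 27.2 to 1120 ± 85.1 (log2 fold change -0.71, adjusted p = 2.07e-08). The ubiquitin ligase SIAH1 had a log2 fold change of -0.56 (adjusted p = 0.0075), and 0.054 without control 1. PINK1 was not analysed here.

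In the list of TBK1 and its adaptors 2 of 4 tested genes rose and 2 fell, near the 47.3% and 46.7% of all tested genes. IKBKE, the kinase most like TBK1, rose from 402 ± 8.95 to 675 ± 41.9 (adjusted p = 7.46e-07 for a log2 fold change of 0.75), and the adaptor TANK rose from 296 ± 28.7 to 445 ± 14.2. The adaptors TBKBP1 and AZI2 fell by 0.53 and 0.35 on the log2 scale. TBK1 itself was not analysed here.

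Among partners of the 2 receptors, LGALS8, which encodes the galectin-8 that NDP52 binds, rose from 37.4 ± 5.54 to 128 ± 14.5. Its log2 fold change of 1.76 (adjusted p = 1.30e-06) was the largest rise among the 55 genes. LGALS8 read low, and HEATR1 overlaps it over 3977 bases on the opposite strand, so its reads are uncertain. TBC1D17, a GTPase-activating protein that binds optineurin, fell by 0.59 on the log2 scale, and TFRC, the transferrin receptor, fell by 0.36. RAB8A, a GTPase partner of optineurin, was at 0.24 (adjusted p = 0.028), and its call ended without control 1, knockout 2 or knockout 3 (adjusted p up to 0.18) and with upper-quartile scaling (0.10).

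Of the core machinery, the ATG8 gene MAP1LC3B, whose product LC3B coats the autophagosome, fell from 1072 ± 6.26 to 715 ± 16.8 (log2 fold change -0.58, adjusted p = 9.78e-07). MAP1LC3B2, a near-identical copy, had a log2 fold change of -0.86 (adjusted p = 0.029), a call that ended without control 1, control 2, knockout 1 or knockout 3 (adjusted p up to 0.11), and reads may be split between the 2 copies. Of 9 tested genes of ATG8 conjugation and membrane supply 6 rose and 2 fell, beside 47.3% and 46.7% of all tested genes. The lipid transfer gene ATG2A rose from 718 ± 48.8 to 1143 ± 73.8, and the protease ATG4D and the membrane carrier ATG9A rose by 0.61 and 0.57 on the log2 scale, while WDR45B fell by 0.57. In the PI3-kinase complex BECN1, which encodes beclin 1, fell by 0.39 and UVRAG had a log2 fold change of -0.22 (adjusted p = 0.018, 0.055 without control 1). In the ULK complex ULK1 was at 0.27 (adjusted p = 0.0086, 0.071 without knockout 3) and ATG13 at -0.18 (adjusted p = 0.043), a call that ended without control 2, control 3, knockout 1, knockout 2 or knockout 3 (adjusted p up to 0.30).

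The late steps and the transcriptional regulators held more lower than higher genes, in small lists whose difference from the 46.7% of all tested genes called lower was not tested. Of 7 tested genes of fusion with lysosomes 5 fell and 1, the SNARE VAMP8, rose, from 1705 ± 115 to 2508 ± 335. STX17, the SNARE of the closed autophagosome, fell from 402 ± 12.5 to 238 ± 29.9, and TBC1D15 and EPG5 fell by 0.59 and 0.46 on the log2 scale. All 4 tested transcriptional regulators fell, among them TFE3, from 847 ± 26.0 to 545 ± 63.9, FOXO1, by 0.52, and FOXO3, by 0.41. The fourth, MITF, read low, at 23.2 ± 3.35 and 6.41 ± 5.30 (log2 fold change -1.93). Its call was not recomputed with libraries left out. TFEB was not analysed here.

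**Figure D4:**
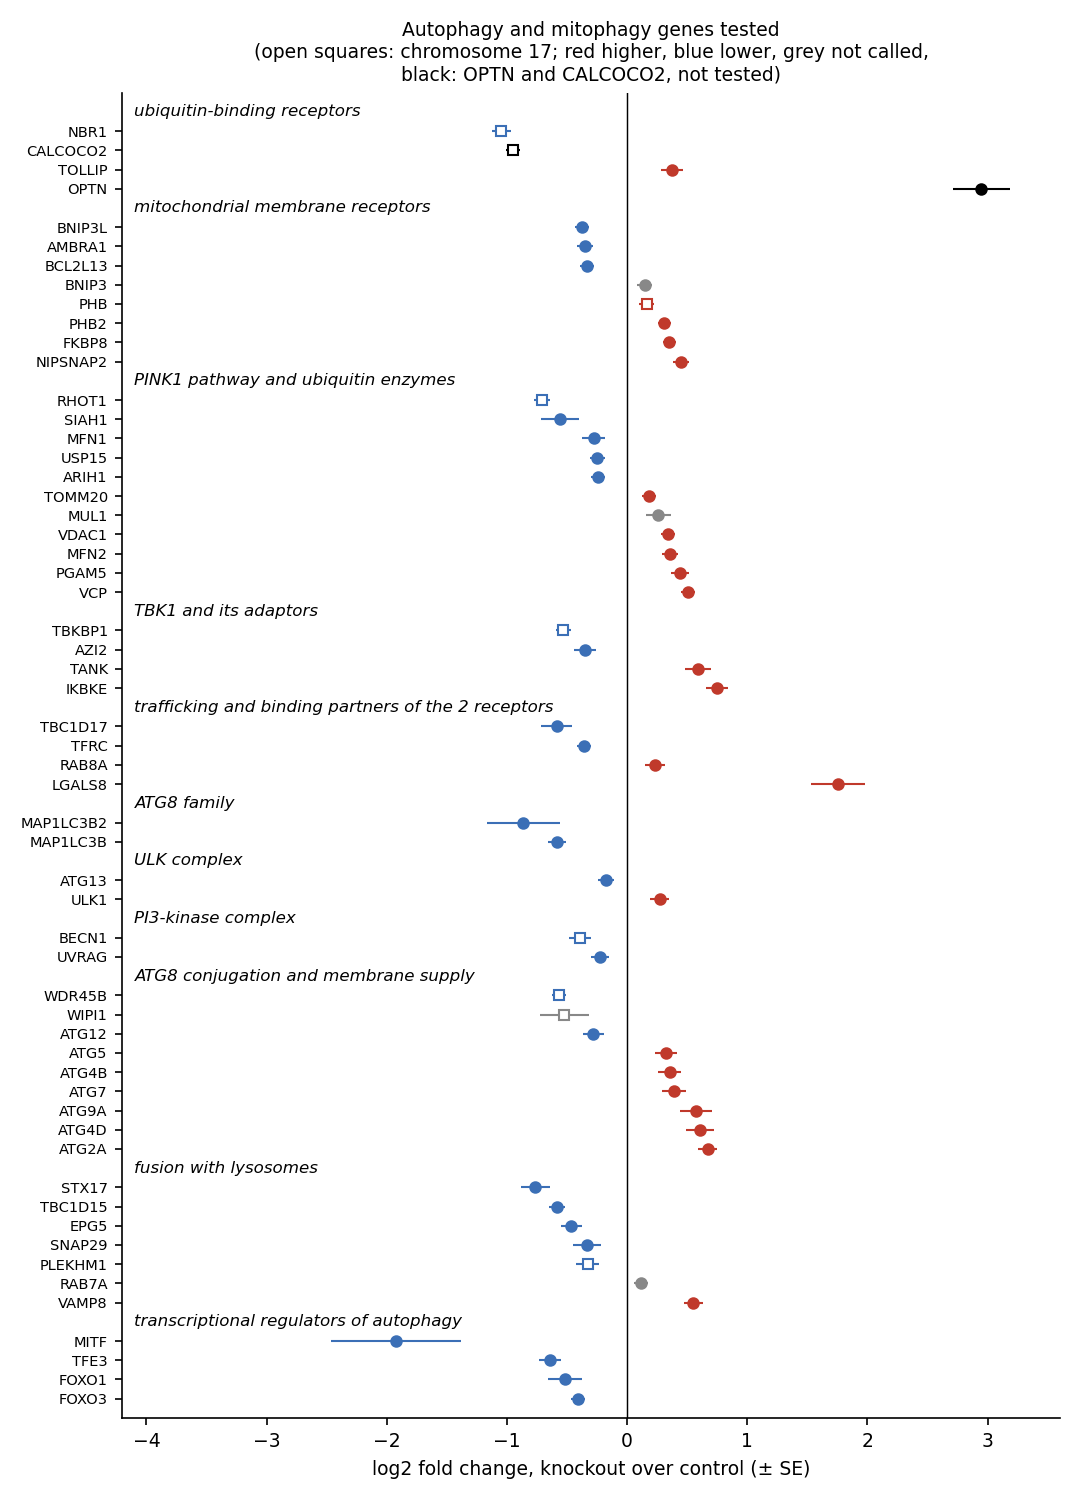
Log2 fold change (knockout over control) with SE for each tested autophagy and mitophagy gene, grouped by role; red genes were called higher, blue lower and grey neither, open squares lie on chromosome 17 and black marks the 2 receptors described without a test. OPTN at 2.95 is the highest point and LGALS8 at 1.76 the next, and CALCOCO2 at -0.95 lies beside NBR1 at -1.05.

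The likeness of other genes to each receptor was measured as the root mean square difference between log2(value + 1) profiles over the 6 libraries, each centred on its own mean, over 6418 other protein-coding genes whose mean was 50 or more. Closest to OPTN were GGT1, a gamma-glutamyltransferase (difference 0.13), CYTIP, a regulator of leukocyte adhesion (0.14), and the B cell receptor chain CD79B (0.15). The receptor chain IL18RAP (0.19) and the membrane protease ST14 (0.20) came next. GGT1 read 144 ± 14.9 and 1100 ± 48.0, and CYTIP 76.9 ± 6.55 and 558 ± 47.0. GGT1 overlaps SNRPD3 on the same strand, so its reads are uncertain. CD79B, a B cell marker, read 73.0 ± 23.6 and 524 ± 23.5. Closest to CALCOCO2 were ERBIN, ZER1 and DAPK2 (each 0.04), then MACROD2 and DHX40 (both 0.05). DHX40, a helicase on chromosome 17, read 2341 ± 59.8 and 1269 ± 24.7. Within a difference of 0.25, a limit set after the values were seen, lay 8 genes for OPTN and 1231 for CALCOCO2. The measure depends largely on the size of the change, by which OPTN ranked 147 and CALCOCO2 1613 among tested genes. These counts are therefore not a separate result about either receptor.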

How the data were processed

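Poly-T-selected RNA of 6 Kasumi-1 libraries was sequenced, with libraries made by a directional kit, per the labels' protocols. Per the submitters' processing notes the tools included HISAT2 and DESeq2 and the build was hg38; no source used here gives versions, the counter or its settings. The authors deposited, per gene and library, a signal: normalized read counts, which are counts divided by a size factor. Dividing by the value of 1 read gave whole numbers, within 0.001, for 100% of values, but for control 3 and knockout 2 the step is so near 1 that whole reads are less certain. The authors also deposited a log2 fold change and a p-value and adjusted p-value per gene, and the adjusted values show an adjustment over 19860 genes. Gene length in bases is the authors' too. All 7983 genes matched GENCODE 29 in chromosome, start and end.

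The 7516 genes whose mean over the libraries reached 10 entered a two-sided limma-trend test of log2(value + 1), run with limma 3.58.1 under R 4.3.3. A gene was called at a Benjamini-Hochberg adjusted p below 0.05, with adjustment over 19860 genes. The script was tested on simulated data. OPTN, CALCOCO2, the gene lists and the tests were chosen with earlier results of these data known. Named genes were KMT5A, the 5 nearest tested genes on each side of each receptor, its 5 closest profiles among protein-coding genes whose mean reached 50, all tested ubiquitin-binding receptors, and for each list up to 4 called genes, by size of change, whose mean reached 50. In this table overlapping genes are uncertain, and 53 of the 67 named genes overlap another annotated gene. Some listed markers are not reported here. Promoter windows come from RefSeq (GRCh38.p14), which held both genes. Replicate libraries differed beyond counting noise (chi-square per degree of freedom 3.83 to 11.9), so none was treated as a repeat run of the same library. This check cannot show whether the libraries came from separate cultures. Alternatives were edgeR 4.0.16 and DESeq2 1.42.0 on the recovered reads, other scalings, filters and pseudocounts, a replicate block, leaving out each library, and removal of a length trend (span 0.5) or of the median of surrounding genes.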

Additional observations from a re-analysis of the deposited data

How the results depend on the processing

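OPTN stayed higher and CALCOCO2 lower under every alternative run. Leaving out each library in turn gave log2 fold changes of 2.86 to 3.06 for OPTN and -0.98 to -0.92 for CALCOCO2. The OPTN value was 2.74 with a pseudocount of 5 and 3.22 with the median of genes within 5 Mb removed. The CALCOCO2 value was -1.005 with upper-quartile scaling, -0.81 with the length trend removed and -0.37 with the median of genes within 5 Mb removed, which by construction takes away what surrounding genes share. The median around OPTN was 0.021 with upper-quartile scaling and changed sign to -0.22 with a filter at a mean of 50, which left fewer genes, and to -0.28 in a window of 5 Mb, where 10 genes were below 0 and 6 above. The median around CALCOCO2 was -0.58 with that filter and with protein-coding genes only, -0.77 with upper-quartile scaling and -0.58 in a window of 5 Mb, where 73 genes were below 0 and 8 above.

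The labels' replicate numbers did not pair the samples: deviations of same-numbered libraries correlated at 0.0086, -0.0033 and -0.050, and not every library correlated best with its own number. With a replicate block 22 listed autophagy genes were higher and 29 lower, as without it, and 3569 genes of the table were higher and 3522 lower, in place of 3557 and 3513. With edgeR 23 and 29 listed genes were called, and with DESeq2 22 and 29. Of 65 named genes besides the 2 receptors, 11 lost their call under at least 1 alternative and none changed sign. PHB, MAP1LC3B2, PLEKHM1, CD3D and EPCAM, named after their values were seen, were recomputed too, and the first 3 lost their call in at least 1 setting. The control value of OPTN rests on 65 reads, which limits the precision of its fold change.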

Other observations

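The surroundings of the other ubiquitin-binding receptors were compared in the same way, after the values had been seen. NBR1 (chromosome 17, 43170481 to 43211689), at a log2 fold change of -1.05, had 36 tested genes within 1 Mb, of which 31 fell and 3 rose, with a median of -0.62. It was 0.43 below that median, and 6 of the 36 genes had a lower log2 fold change. Over all tested genes 46.7% were called lower and 47.3% higher. Of the tested genes on chromosome 17 other than CALCOCO2, 75.9% had a log2 fold change below 0. TOLLIP (chromosome 11, 1274371 to 1309654), at 0.37, had 22 tested genes within 1 Mb, of which 15 rose and 5 fell, with a median of 0.52, and lay 0.14 below it. OPTN lay 2.87 above the median of its surroundings, the largest distance among these receptors. It had been picked with its large change known, so its place in this ordering is not a separate result, and the ordering was not tested.

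Of the 55 listed autophagy genes other than OPTN and CALCOCO2, 8 lie on chromosome 17. NBR1, RHOT1, WDR45B, TBKBP1 and BECN1 fell, PLEKHM1 was called lower but not without control 3 (adjusted p = 0.074), PHB was called higher with the limits given above, and WIPI1 did not pass (adjusted p = 0.054), with a median log2 fold change of -0.53. The 47 genes on other chromosomes had 21 higher and 23 lower, with a median of 0.12. This split was made after the values were seen and was not tested.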
